A study of Drosophila melanogaster with 30 samples.

Results

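Glutathione S-transferases are enzymes that join the tripeptide glutathione to electrophilic compounds and thereby take part in detoxification and in the handling of oxidised lipids. The delta and epsilon classes expanded in insects and are best known from insecticide resistance, whereas the omega, sigma, theta and zeta classes are shared with other animals. In flies many of these genes respond to oxidative stress through the transcription factor cnc, which is held in check by Keap1. The members described here are all genes whose symbol is GstD, GstE, GstS, GstT, GstO or GstZ followed by a number. This rule gave 35 of the 16322 genes in the files, with 11 delta, 14 epsilon, 3 omega, 1 sigma, 4 theta and 2 zeta members. All 35 symbols matched the BDGP6.54 annotation of the reference, where the 11 delta genes lie within 20.8 kb of chromosome arm 3R (12364776 to 12385624).

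The libraries are Drop-seq profiles of single hemocytes, the blood cells of the fly, from Drosophila melanogaster larvae of the wild-type strain Oregon-R. Normal lymph glands, the larval blood-forming organ, were taken at 72 h after egg laying (AEL; 5 libraries), 96 h AEL (5) and 120 h AEL (4), and circulating hemocytes at 96 h AEL (3) and 120 h AEL (3). Infested larvae were exposed at 72 h AEL to the wasp Leptopilina boulardi, which lays its eggs into larvae, and their lymph glands were taken at 96 h AEL (4 libraries) and their circulating hemocytes at 96 h AEL (3) and 120 h AEL (3). No group carried a mutation or transgene, every lymph gland library pooled the primary lobes of many larvae, and nothing in the labels ties the libraries of a number to a common day. After filtering, 48370 of 50849 barcodes were kept as cells, and libraries held 1229715 to 33310323 unique molecular identifiers (UMIs, each tagging 1 captured mRNA at its 3′ end).

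Some circulation libraries stood apart from their labels. Among the normal circulation libraries, number 3 of 96 h AEL correlated best with library 2 of 120 h AEL (r = 0.969 across genes, against 0.939 and 0.909 with its own group), and number 3 of 120 h AEL best with library 2 of 96 h AEL (r = 0.987, against 0.946 and 0.944). Fbp1, a fat body gene of late larvae, was at 7.38 counts per 1000000 UMIs (CPM) in library 3 of 96 h AEL, at 5.65 and 7.77 CPM in libraries 1 and 2 of 120 h AEL and at 0 in the other 3. Library 3 of 96 h AEL also shared 38 cell barcodes with library 1 of 120 h AEL, 9.03% of the smaller library, whereas no other pair of libraries shared more than 3. Counts of called members in the normal circulation are therefore given with and without both libraries 3, and other genes with them only. Markers also differed between circulation groups, in which the summed prohemocyte markers (Tep4, Ance and IM18) reached 2273 to 3120 CPM in infested larvae of 96 h AEL against 433 to 561 CPM in normal ones. The plasmatocyte markers (Hml, Pxn, NimC1, vkg and eater) summed to 889 to 2029 CPM in infested and to 9007 to 13713 CPM in normal circulation of 96 h AEL.

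The members together made up 0.701% of all UMIs. GstD1, a delta class enzyme known for its activity towards DDT, alone held 64.3% of the member UMIs, and GstD1, GstO3 and GstD3 together held 81.9%. The first 10 members held 96.5%. Since each UMI marks 1 molecule at its 3′ end, these shares were not divided by transcript length. At the other end, 10 members had fewer than 1000 UMIs over all 30 libraries, and GstD6, GstD8, GstD11, GstE4 and GstE10, with 87, 69, 19, 25 and 113 UMIs, were too low to be tested in any comparison. Of the 35 members, 30 to 35 had at least 1 UMI in each group, and the fewest were found in the shallow normal circulation libraries of 96 h AEL. The delta and epsilon genes are close paralogs, and 7 members overlap a gene on the other strand. How reads shared between such genes were assigned is not given in the sources used here, so that low members beside a high paralog are uncertain.

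**Figure D1:**
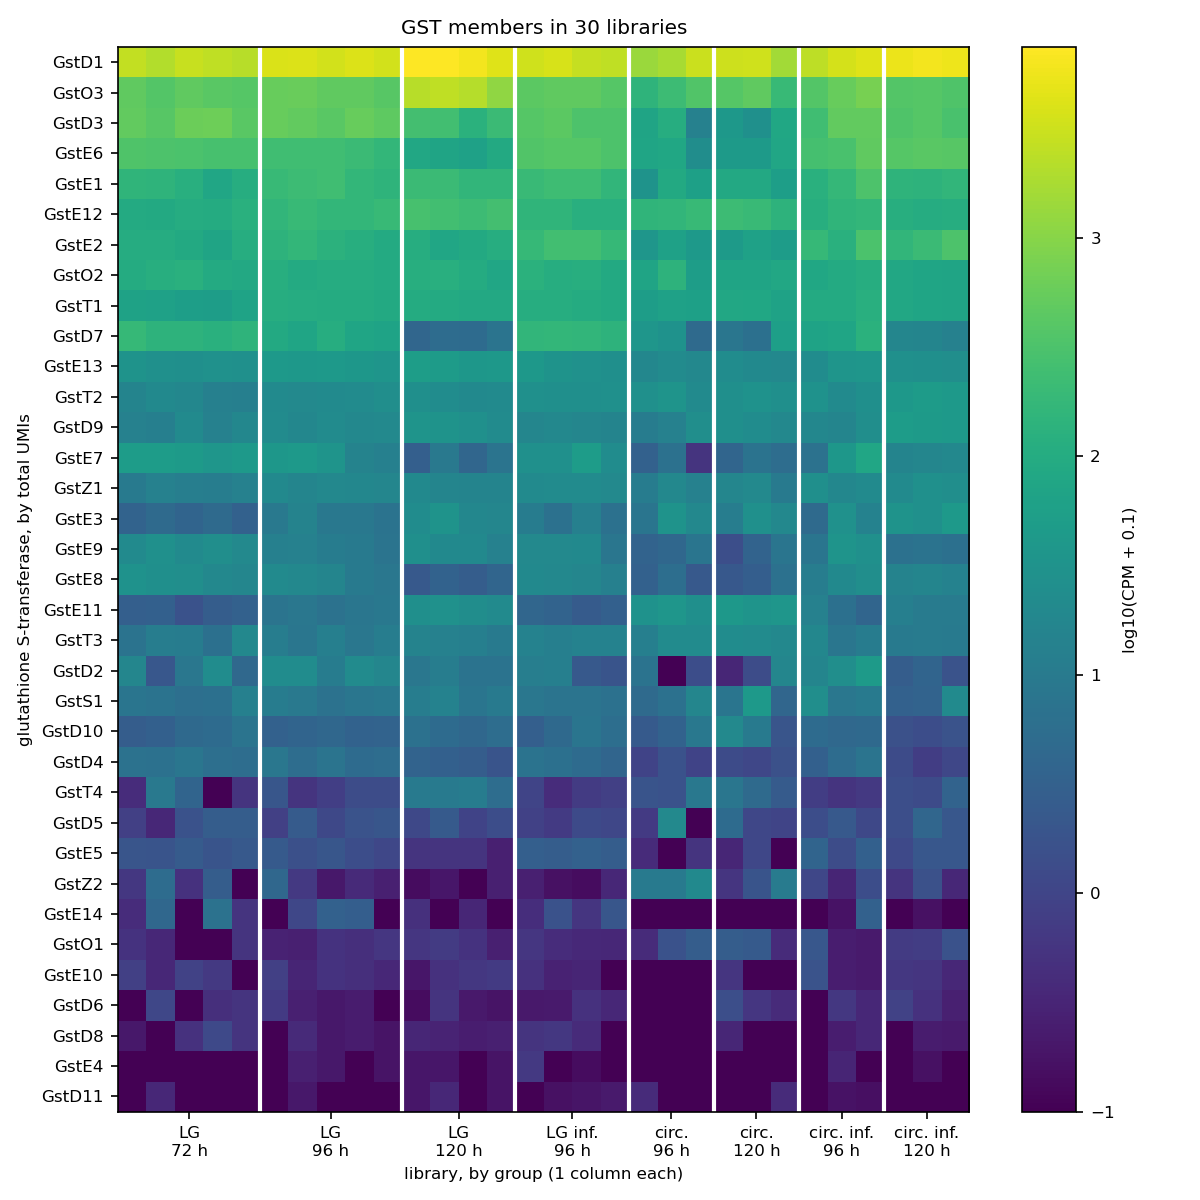
Level of each of the 35 members (rows, ordered by total UMIs) in each of the 30 libraries (columns, by group) as log10(CPM + 0.1). GstD1 is the highest row in every library, and GstE4 and GstD11, with 25 and 19 UMIs in all, form the bottom.

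Summed over all members, the level was highest in normal lymph glands of 120 h AEL, with 9627 ± 2088 CPM (SD, n = 4), and lowest in normal circulation of 96 h AEL, with 3047 ± 893 CPM (SD, n = 3). Lymph glands of 72 h AEL had 4602 ± 483 CPM (SD, n = 5), and those of 96 h AEL 6063 ± 497 CPM (SD, n = 5). Infested lymph glands had 5420 ± 736 CPM (SD, n = 4). In circulation the sum was 3832 ± 1094 CPM at 120 h AEL, 5948 ± 1686 CPM in infested larvae of 96 h AEL and 7744 ± 458 CPM in infested larvae of 120 h AEL (SD, n = 3 each). The sum mostly follows GstD1, whose share of it ranged from 50.2% in a lymph gland library of 72 h AEL to 74.6% in a circulation library of infested larvae of 120 h AEL. When the 8 groups were ordered by their mean GstD1 level, 6 of the 7 neighbours in this order had overlapping libraries. Classes differed in where they were highest, with the 3 omega members summing to 2122 ± 605 CPM (SD, n = 4) in lymph glands of 120 h AEL and to group means between 326 and 652 CPM in all other groups. The 14 epsilon members had their highest mean sums in infested samples, against 415 to 837 CPM in the means of the normal groups. Infested lymph glands had 1044 ± 120 CPM (SD, n = 4). Infested circulation had 1059 ± 382 CPM (SD, n = 3) at 96 h AEL and 1011 ± 106 CPM (SD, n = 3) at 120 h AEL. Infested glands, at 878 to 1134 CPM, overlapped with the 685 to 962 CPM of normal glands of 96 h AEL. Infested and normal circulation did not overlap at either age.

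The first comparison followed the members over the growth of the normal lymph gland. From 72 to 96 h AEL, GstE11 and GstE3 of the epsilon class rose more than 2-fold, and GstE12, GstT1, GstE1 and GstZ1 rose by smaller amounts. GstE9, GstD7, GstE8 and GstE6 fell. Thus 6 of the 28 members tested rose and 4 fell at a false discovery rate (FDR, the adjusted p of edgeR's quasi-likelihood test over all genes tested) below 0.05. Of all 7740 genes tested, 9.74% rose and 10.2% fell (19.9% in all), and the median log2 fold change was -0.02 over the members and 0.02 over all genes. In whole-library sums such as these, fewer cells of a type and less RNA per cell cannot be told apart.

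GstE11 was at 2.89, 2.99, 1.61, 2.67 and 3.10 CPM in the 5 libraries of 72 h AEL, at 7.50, 8.40, 6.88, 8.04 and 8.84 CPM at 96 h AEL, and at 26.9, 29.2, 24.1 and 21.7 CPM at 120 h AEL. The 3 ages did not overlap, and GstE11 rose in both steps, by 1.39 ± 0.17 (log2 fold change ± SE, FDR = 3.9e-05) up to 96 h AEL and by 1.81 ± 0.13 (FDR = 1.4e-07) up to 120 h AEL. GstE3 took the same course. It was at 3.40, 4.73, 3.63, 4.63 and 3.10 CPM at 72 h AEL, at 9.38, 15.0, 8.73, 8.94 and 7.11 CPM at 96 h AEL and at 23.0, 32.1, 17.9 and 16.9 CPM at 120 h AEL, again without overlap, with log2 fold changes of 1.17 ± 0.28 (FDR = 0.0091) and 1.31 ± 0.24 (FDR = 0.00044). GstD7 took the opposite course. It was at 185, 143, 143, 124 and 147 CPM at 72 h AEL, at 91.7, 73.2, 108, 72.8 and 67.6 CPM at 96 h AEL and at 3.89, 5.21, 4.86 and 7.56 CPM at 120 h AEL. The groups did not overlap, and GstD7 fell by 1.00 ± 0.17 (FDR = 0.00077) and then by 3.80 ± 0.21 (FDR = 1.1e-08) on the log2 scale, the largest fall among the members in either step. GstE9 fell and then rose. It was at 21.5, 27.9, 21.8, 25.7 and 19.9 CPM at 72 h AEL, at 12.9, 13.8, 11.1, 9.91 and 7.44 CPM at 96 h AEL (log2 fold change -1.25 ± 0.21, FDR = 0.00066) and at 26.8, 20.4, 20.1 and 13.8 CPM at 120 h AEL (1.02 ± 0.20, FDR = 0.00094). The lowest older gland was just above the highest of 96 h AEL. GstE8, at 31.1, 26.6, 25.0, 18.5 and 16.8 CPM at 72 h AEL, overlapped with 96 h AEL, and its fall (-0.85 ± 0.26, FDR = 0.030) was lost when any 1 of 6 libraries was left out.

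From 96 to 120 h AEL, 10 of 28 members rose and 7 fell, in a comparison in which 22.1% of all genes rose and 20.4% fell (42.6% in all). The median log2 fold change was 0.12 over the members and 0.00 over all genes. Besides GstE11, GstE3 and GstE9, the members that rose were GstT4, GstO3, GstD1, GstD10, GstD9, GstE12 and GstE13. GstT4, a rare theta class member, was at 1.88, 0.442, 0.719, 1.25 and 1.24 CPM at 96 h AEL and at 9.64, 10.0, 10.9 and 5.40 CPM at 120 h AEL, without overlap (3.28 ± 0.69, FDR = 0.0014). GstO3, the second most abundant member, had 560, 570, 487, 475 and 399 CPM at 96 h AEL and 2215, 2508, 2189 and 1165 CPM at 120 h AEL. It rose 4.48-fold (log2 fold change 2.16 ± 0.21, FDR = 2.0e-06), and library 4 of 120 h AEL was below the other 3. That library was also lowest for GstD1, with 4387 CPM against 6127 to 7471 CPM in the other 3, all of them above the 3459 to 4153 CPM of 96 h AEL (0.87 ± 0.18, FDR = 0.0011). Between 72 and 96 h AEL the ranges of GstD1 were apart as well, yet the change of 0.46 ± 0.17 did not pass the test (FDR = 0.070).

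The members that fell from 96 to 120 h AEL were GstD7, GstE8, GstE7, GstE5, GstE6, GstD3 and GstD4. GstE8 was at 21.8, 18.4, 16.2, 9.98 and 8.60 CPM and then at 2.21, 3.31, 2.61 and 3.74 CPM (-2.19 ± 0.29, FDR = 3.1e-05). GstE7, at 38.6, 44.0, 32.9, 14.8 and 13.0 CPM, was at 2.88, 9.22, 3.90 and 7.48 CPM in the older glands (-2.16 ± 0.39, FDR = 0.00045). In both genes all older glands were below all younger ones. GstE6 fell in both steps, from 291 to 341 CPM at 72 h AEL to 171 to 243 CPM and then to 62.4 to 93.1 CPM (-0.66 ± 0.14 and -1.38 ± 0.15). Heat shock genes moved with this comparison. Their summed level was 651 to 17816 CPM at 120 h AEL against 123 to 449 CPM at 96 h AEL, and all 5 tested were higher. Their part in the members' changes was not tested. Library 2 of 120 h AEL was highest, with Hsp26 at 5712 CPM against 18.3 to 172 CPM in the other 3, and without it 9 members rose and 7 fell.

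**Figure D2:**
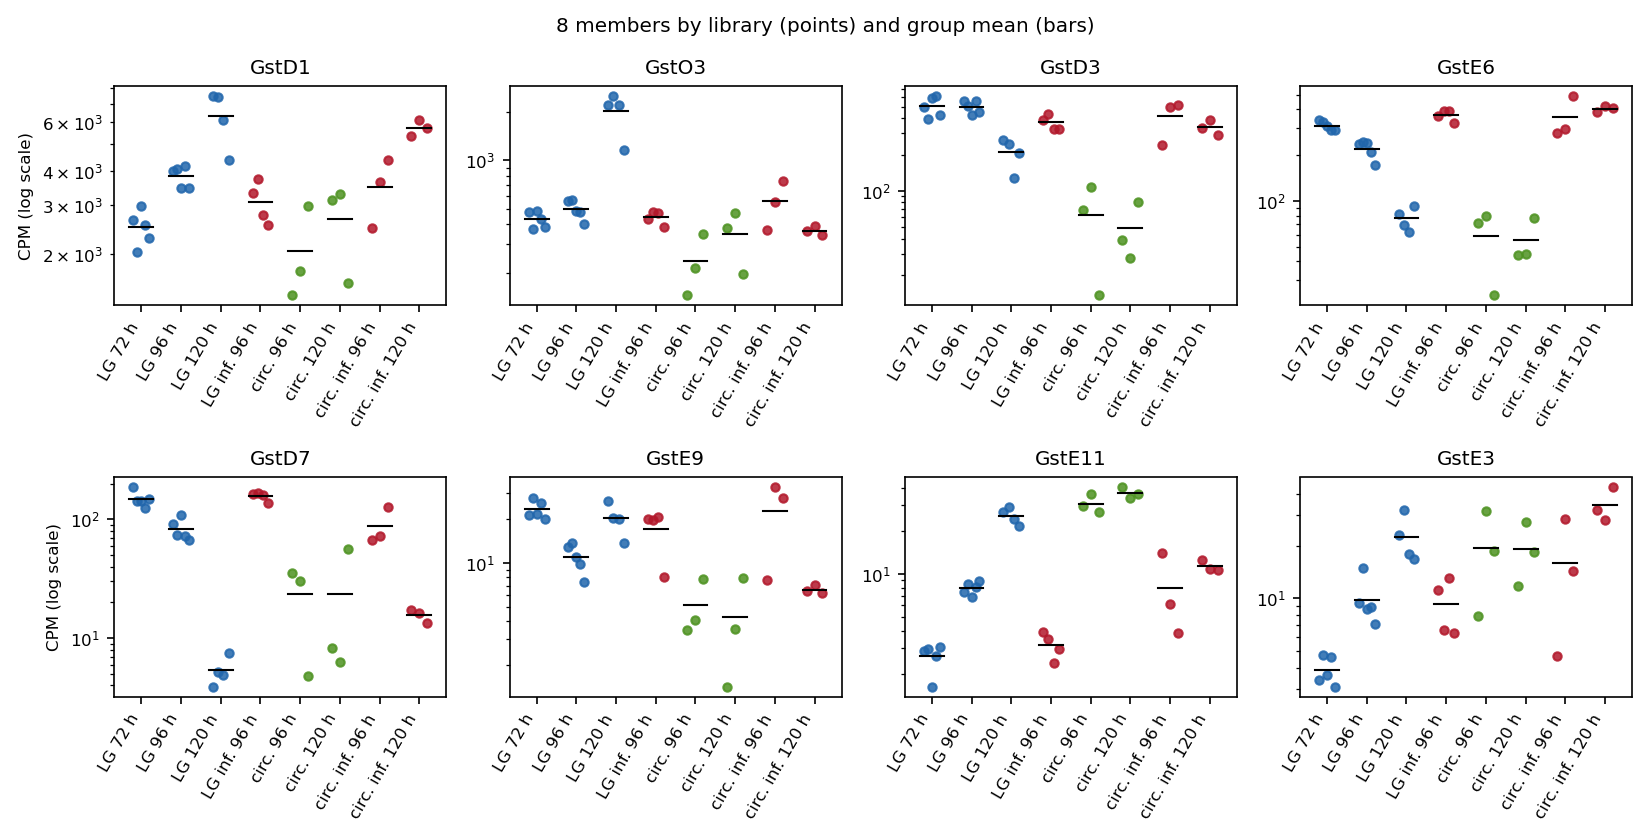
Levels of 8 members (CPM, log axis) in each library (points), with the group mean as a bar, for normal lymph gland (blue), normal circulation (green) and infested samples (red). GstD7 lies at 3.89 to 7.56 CPM in lymph glands of 120 h AEL against 124 to 185 CPM at 72 h AEL, whereas GstE11 rises from 1.61 to 3.10 CPM to 21.7 to 29.2 CPM.

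The next comparison set infested against normal lymph glands of 96 h AEL. GstD7 and GstE6, which both fell with age, were higher after infestation. GstE11, GstD3, GstE12, GstD1, GstE13 and GstD9 were lower. Thus 2 of 28 members rose and 6 fell, against 7.98% and 9.76% of all 7315 genes tested (17.7% in all), with a median log2 fold change of -0.19 over the members and 0.01 over all genes. Lamellocyte markers, of the cell type that encapsulates wasp eggs, summed to 883 to 1615 CPM in infested and to 58.1 to 149.6 CPM in normal glands. Their part in these changes was not tested.

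GstE11 was at 3.89, 3.50, 2.37 and 2.99 CPM in the infested glands, all below the 6.88 to 8.84 CPM of normal ones (-1.49 ± 0.18, FDR = 0.00035). GstD7 was at 163, 165, 161 and 138 CPM against 67.6 to 108 CPM (0.76 ± 0.13, FDR = 0.0033), and GstE6 at 363, 387, 388 and 326 CPM against 171 to 243 CPM (0.56 ± 0.12, FDR = 0.011). These 3 members did not overlap between the groups. GstD3, with 391, 439, 325 and 327 CPM against 428 to 562 CPM, was lower but overlapped in 1 library (-0.61 ± 0.13, FDR = 0.0082). GstE12 was at 155, 153, 121 and 120 CPM against 164 to 193 CPM, without overlap (-0.54 ± 0.12, FDR = 0.010). GstD1 was at 3324, 3724, 2763 and 2539 CPM, overlapping the normal glands in 1 library (-0.48 ± 0.13, FDR = 0.024), and lost the call without normal library 2 or 4 or infested library 3 or 4. Of the 8 calls, only those of GstE11 and GstE12 held in every alternative setting tried.

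Normal circulating hemocytes had less of most members than lymph glands of the same age. At 96 h AEL, 19 of 29 members were lower and 3 higher, whereas 22.8% of all 8497 genes were lower and 27% higher (49.8% in all). The median log2 fold change was -1.17 over the members and 0.09 over all genes. At 120 h AEL, 15 of 29 were lower and 2 higher, against 24% and 27.9% of all genes (52% in all), with medians of -0.78 and 0.07. Without both libraries 3, 18 members were lower and 2 higher at 96 h AEL, and 15 lower and 2 higher at 120 h AEL. The latter counts hide changes of members. The 2 higher were then GstD10 (0.98, FDR = 0.0055) and GstO1 (1.95, FDR = 0.017) in place of GstD7 and GstZ2, and among the lower GstT4 was lost (-1.03, FDR = 0.052) and GstD2 gained, from -1.03 (FDR = 0.27) to -4.05 (FDR = 0.00077). Circulation also differed in its other cells. At 96 h AEL, plasmatocyte markers summed to 9007 to 13713 CPM in normal circulation against 1641 to 4122 CPM in normal lymph glands. Prohemocyte markers summed to 433 to 561 CPM against 3481 to 4194 CPM. Fat body markers summed to 26.0 to 886 CPM in normal circulation of 96 h AEL against at most 1.62 CPM in any lymph gland library. Of 8 heat shock genes tested, 5 were higher in circulation at 96 h AEL, and 1 was lower at 120 h AEL. The part of these cells and genes in the lower levels was not tested.

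GstD3 was at 69.4, 107 and 13.5 CPM in circulation of 96 h AEL and at 428 to 562 CPM in the lymph gland (-3.41 ± 0.51, FDR = 1.0e-04). At 120 h AEL it was at 39.1, 27.8 and 80.0 CPM against 127 to 265 CPM (-2.61 ± 0.50, FDR = 0.00066). GstE7, with 20 UMIs in circulation of 96 h AEL, was at 3.21, 6.51 and 0.434 CPM against 13.0 to 44.0 CPM (-3.65 ± 0.69, FDR = 0.00064). In both genes circulation lay below every lymph gland library of its age. GstD4 (0.875, 1.63 and 0.868 CPM against 4.99 to 8.44 CPM, -2.96 ± 0.37, FDR = 2.4e-05) and GstD2 (7.0, 0 and 1.30 CPM against 10.99 to 23.6 CPM, -2.81 ± 0.86, FDR = 0.014) did not overlap either, but GstD2 lost the call without circulation library 3. At 120 h AEL, GstE9 was at 1.41, 3.51 and 7.85 CPM against 13.8 to 26.8 CPM (-2.81 ± 0.42, FDR = 1.0e-04) and GstE1 at 88.1, 88.2 and 53.5 CPM against 162 to 214 CPM (-1.79 ± 0.28, FDR = 0.00015). All of these lay below the lymph gland in every library. GstO3 was at 145, 216 and 351 CPM at 96 h AEL (-1.47 ± 0.33, FDR = 0.0020) and at 380, 473 and 195 CPM at 120 h AEL (-3.05 ± 0.36, FDR = 1.8e-05), so that circulation did not show the level of 1165 to 2508 CPM of the older glands. GstD1 was at 1408, 1734 and 2981 CPM and at 3122, 3292 and 1567 CPM, below the lymph gland at both ages (-1.30 ± 0.27 and -1.77 ± 0.28). In GstD1 and GstO3, library 3 of each age lay nearer to libraries 1 and 2 of the other age than to those of its own.

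GstE11 had the opposite order at 96 h AEL. It was at 29.8, 35.8 and 26.9 CPM in circulation of 96 h AEL, above the lymph gland (1.55 ± 0.14, FDR = 1.8e-06). At 120 h AEL its CPM ranges were apart, with 40.0, 33.6 and 35.9 CPM against 21.7 to 29.2 CPM. The log2 fold change of 0.01 ± 0.14 did not pass the test there (FDR = 0.96). CPM are plain shares of UMIs, whereas fold changes also use the size factors of the test, so the scales can differ. GstD7 depended on library 3. At 120 h AEL it was at 8.24, 6.27 and 56.5 CPM, a log2 fold change of 1.61 ± 0.62 over the lymph gland (FDR = 0.042) that became -0.067 (FDR = 0.87) without both libraries 3. Likewise GstT4 was higher at 96 h AEL through library 3, which had 8.68 CPM against 1.75 and 1.63 CPM in the other libraries, and its log2 fold change of 1.61 fell to 0.37 (FDR = 0.68) without both. GstZ2 was higher in circulation at both ages (3.57 ± 0.99, FDR = 0.0081, and 5.32 ± 1.30, FDR = 0.0036) on 92 and 44 UMIs, against 39 and 5 UMIs in the lymph glands. Without both libraries 3 it no longer passed the test at 120 h AEL (3.40, FDR = 0.068). Without circulation library 1 of 96 h AEL, 5 members were higher at that age, and without lymph gland library 1, 2 or 3 of 120 h AEL, 1 was higher at 120 h AEL.

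In infested larvae the circulation libraries, whose cell markers also differed, had more of many members. At 96 h AEL, 15 of 27 members rose, with GstE7, GstD2, GstD3, GstE6 and GstE8 leading, and GstZ2, GstT4 and GstE11 fell. Of all 7645 genes, 18.8% rose and 17.4% fell (36.2% in all), and the median log2 fold change was 1.00 over the members and 0.02 over all genes. At 120 h AEL, 9 of 27 rose and GstD10, GstE11, GstT3 and GstE12 fell, against 23.5% and 22.9% of all genes (46.4% in all), with medians of 0.22 and -0.01. Without both libraries 3, 17 rose and 2 fell at 96 h AEL, and 9 rose and 4 fell at 120 h AEL, where GstE1 lost its call (FDR = 0.042 with and 0.14 without them) and GstD7 gained one. At 96 h AEL, 9 rose without normal library 1 or infested library 3, and 1 fell without normal library 3 or infested library 2. These comparisons share the normal circulation libraries with those against the lymph gland.

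GstE6 was at 279, 299 and 490 CPM in infested circulation of 96 h AEL and at 384, 419 and 408 CPM at 120 h AEL, and in normal circulation at 71.8, 79.7 and 23.9 CPM and at 44.3, 44.6 and 76.7 CPM. Infested and normal libraries were far apart at both ages (2.88 ± 0.43, FDR = 0.00093, and 3.03 ± 0.42, FDR = 0.00025). GstD3 was at 240, 494 and 513 CPM and at 333, 391 and 293 CPM in infested larvae, against 13.5 to 107 CPM in all normal circulation libraries (3.05 ± 0.64, FDR = 0.0050, and 2.95 ± 0.63, FDR = 0.0032). GstE2 was at 181, 127 and 315 CPM and at 161, 211 and 330 CPM, against 35.9 to 61.0 CPM (2.42 ± 0.37, FDR = 0.0011, and 2.34 ± 0.36, FDR = 0.00046). GstE8 was at 11.6, 20.2 and 25.8 CPM and at 15.2, 16.3 and 14.2 CPM, against 2.12 to 6.34 CPM in normal circulation. For each of these 4 members, all infested libraries were above all normal ones. At 96 h AEL, GstE7 was at 6.63, 38.0 and 77.0 CPM against 3.21, 6.51 and 0.434 CPM, barely apart (4.12 ± 0.88, FDR = 0.0052). GstD2 was at 16.6, 25.1 and 45.6 CPM against 7.0, 0 and 1.30 CPM (3.34 ± 1.10, FDR = 0.034), a call lost without normal library 2 or 3 or infested library 2 or 3. GstZ2 was at 0.995, 0.223 and 1.30 CPM against 9.63, 9.76 and 20.4 CPM (-3.77 ± 1.04, FDR = 0.016), a call lost without normal library 3 or infested library 2. GstD1, at 2473, 3647 and 4355 CPM at 96 h AEL (1.05 ± 0.38, FDR = 0.048) and at 5335, 6105 and 5708 CPM at 120 h AEL (1.25 ± 0.38, FDR = 0.018), overlapped with normal circulation at 96 h AEL and was apart from it at 120 h AEL. Its call was lost when any 1 of 4 libraries was left out at 96 h AEL, and at 120 h AEL without normal library 3 or infested library 2. GstE11 went the other way, to 13.9, 6.09 and 3.83 CPM at 96 h AEL (-1.89 ± 0.29, FDR = 0.0012) and 12.4, 10.7 and 10.6 CPM at 120 h AEL (-1.55 ± 0.27, FDR = 0.00088). GstD10 was at 1.48, 1.31 and 1.70 CPM at 120 h AEL against 19.3, 10.3 and 1.81 CPM (-2.66 ± 0.67, FDR = 0.0073).

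Cell composition moved with infestation as well. In the infested circulation of 120 h AEL, lamellocyte markers summed to 10302 to 14597 CPM against 43.8 to 452 CPM in normal circulation of that age. In the infested circulation of 96 h AEL prohemocyte markers lay within 2273 to 3120 CPM, beside 2247 to 3116 CPM in infested lymph glands. Ring gland markers summed to 0.520 to 22.5 CPM there, against 0.868 to 2.44 CPM in normal circulation of 96 h AEL. Dorsal vessel markers summed to 0.297 to 16.9 CPM against 0 to 0.292 CPM. Of 5 markers of the posterior signaling center of the lymph gland, 3 were higher. Fat body markers were lower, with at most 0.995 CPM against 26.0 to 886 CPM. Heat shock genes were lower in infested circulation, with sums of 79.4 to 311 CPM against 810 to 3439 CPM at 96 h AEL (6 of 7 tested lower) and 328 to 388 CPM against 1324 to 3050 CPM at 120 h AEL (2 of 7 lower). The part of these cells and genes in the members' levels was not tested. GstD7 at 120 h AEL had 17.1, 16.4 and 13.5 CPM and did not pass the test (-0.41 ± 0.75, FDR = 0.68), but rose by 1.29 (FDR = 0.026) without both libraries 3. At 96 h AEL, GstD9 passed the test only without them (1.01, FDR = 0.032), and GstT4 only with them.

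**Figure D3:**
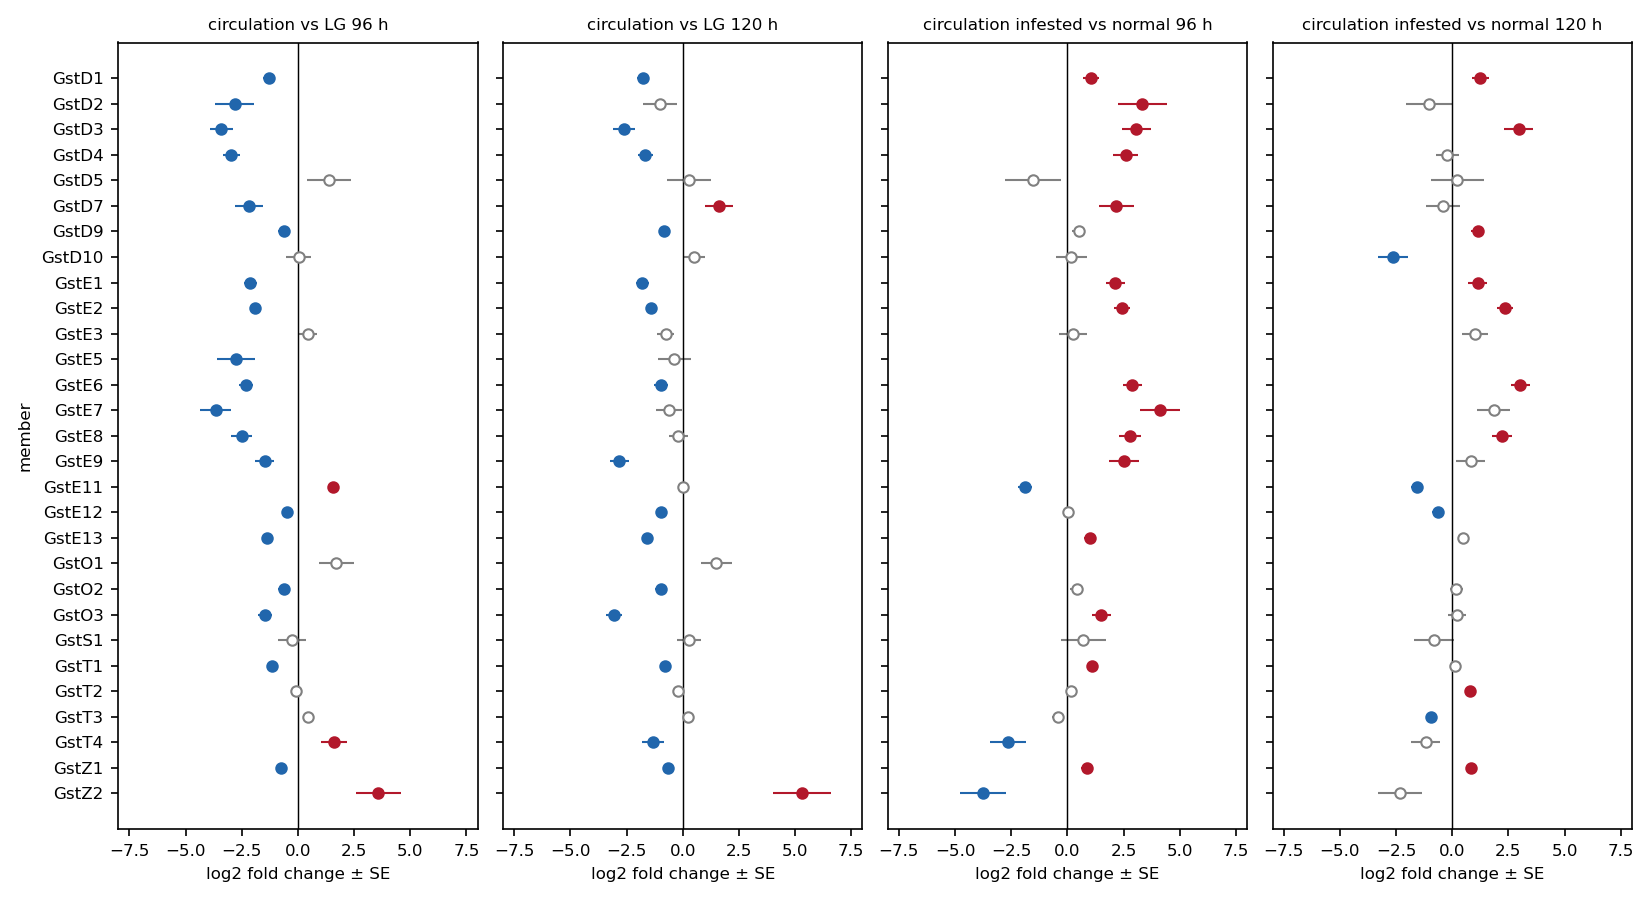
Log2 fold change (± SE) of each tested member in circulation against lymph gland at 96 and 120 h AEL (left panels) and in infested against normal circulation at 96 and 120 h AEL (right panels), filled red where higher and blue where lower at an FDR below 0.05. Most points lie left of 0 in the left panels (medians -1.17 and -0.78) and right of 0 in the right ones (medians 1.00 and 0.22).

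Within libraries, members were compared between cells with and without UMIs of CG3397 and CG18547, both aldo-keto reductases. The study took these genes as markers of GST-rich hemocytes, a class that it named on the same lymph glands for its transferase transcripts, so that higher levels in such cells are no independent evidence of that class. Cells with at least 1 UMI of each gene made up 0.300%, 0.743% and 0.273% of the cells of normal lymph glands of 72, 96 and 120 h AEL and 2.12% of those of infested ones. In circulation they made up 0.870% and 1.06% of the cells at 96 and 120 h AEL, and 3.51% and 5.17% in infested larvae. These shares pool the cells of a group. In the order given, they rest on 7, 70, 30 and 216 such cells in glands and on 9, 18, 210 and 347 in circulation. At 96 h AEL, libraries 1 to 3 of normal circulation were at 1.33%, 1.23% and 0.24%. Those of infested circulation were at 7.73%, 1.68% and 4.20%, the first of them with the deepest cells (median 13846 UMIs). The gate needs 2 rare UMIs and so takes deeper cells. The 8 lymph gland libraries with at least 10 such cells were normal libraries 2 to 5 and infested libraries 1 to 4 of 96 h AEL. They held 281 such cells, with median UMIs of 5838 to 13072 against 3719 to 8141 in the 18718 other cells. The cells with both markers were deeper in 7 of the 8. Lymph glands of 72 and 120 h AEL had too few such cells to be tested.

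In this comparison 10 of 25 members were higher and 0 were lower, against 6.42% and 5.21% of all 6340 genes (11.6% in all), with a median log2 fold change of 0.47 over the members and -0.06 over all genes. Of the 5 members with a log2 fold change below 0, 0 reached an unadjusted p of 0.05 in edgeR, and DESeq2 also called 0 lower. GstD9, GstE6, GstE3, GstE8 and GstT1 were concentrated in these cells, that is, called with a log2 fold change of at least 1 (2.89% of all genes). GstE1, GstE9, GstE7, GstD3 and GstD1 were higher by less. At the threshold, GstT1 had a log2 fold change of 1.00 and GstE1 of 0.98. The other 15 members tested had log2 fold changes from -1.26 (GstD10) to 0.73 (GstD2), none past the test, and among them the abundant GstO3 (0.01 ± 0.09), GstO2 (0.09 ± 0.11), GstE12 (-0.18 ± 0.11) and GstE2 (0.23 ± 0.11) were not called.

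GstE6 was at 562, 501, 747 and 624 CPM in the cells with both markers and at 241, 239, 203 and 165 CPM in the other cells of the 4 normal libraries. In the 4 infested libraries it was at 810, 838, 909 and 875 CPM against 348, 367, 376 and 306 CPM. It was thus higher in all 8 libraries (1.37 ± 0.09, FDR = 7.6e-16), and 5.73% of its UMIs lay in cells that held 2.15% of all UMIs. GstT1, a theta class member, was at 158, 198, 162, 156, 250, 198, 229 and 187 CPM against 87.3 to 104 CPM, again higher in all 8 (1.00 ± 0.11, FDR = 9.4e-10). GstE1 was also higher in all 8 libraries, with 188 to 496 CPM against 142 to 239 CPM (0.98 ± 0.11, FDR = 3.8e-09). GstD1 had 3342 to 6746 CPM against 2510 to 4125 CPM (0.48 ± 0.05, FDR = 4.7e-09), higher in all 8 libraries but by 1.39-fold.

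The other concentrated members rested on few UMIs. GstD9 was at 20.6, 52.7, 13.0 and 169 CPM in the cells with both markers of the normal libraries, from 3, 4, 2 and 26 UMIs, and at 39.3, 29.7, 91.9 and 38.8 CPM in the infested ones, against 14.9 to 22.1 CPM in other cells (1.60 ± 0.25, FDR = 4.7e-06). It was lower in 1 of the 8. GstE3 was at 10.7, 5.94, 56.7 and 7.06 CPM in the infested libraries against 11.2, 6.63, 12.1 and 6.34 CPM, so that it was higher in libraries 3 and 4 there, in library 4 only slightly. It was higher in all 4 normal libraries on 2 to 6 UMIs each (1.15 ± 0.30, FDR = 0.0073). Without infested library 3, GstE3 lost its call and 3 members were concentrated. GstE8 was at 0 in 1 normal library and at 21.2 to 50.8 CPM in the other 7, against 8.37 to 20.3 CPM (1.03 ± 0.24, FDR = 0.0017).

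The counts were lower after thinning, which evens depth but also leaves fewer cells. Each cell was thinned to 2000 UMIs, and shallower cells were left out. The gate was then applied to the thinned UMIs, so that cells that lost a marker UMI counted among the others. This gave 73 cells with both markers and 16436 others, and 3 members were higher and 2 concentrated, GstE6 (1.15) and GstD3 (1.07). Of the 7 that lost their call, GstD9 (1.20), GstE3 (2.28), GstE8 (1.62), GstE9 (1.22), GstT1 (0.80) and GstE1 (0.74) kept log2 fold changes of at least 0.74, whereas GstE7 was at 0.23. Over all genes, 177 were called in either direction after thinning, against 737 before. The cause of the lost calls was not tested. GstE6 had a UMI in 94.7% of the cells with both markers and 62.8% of the others before thinning. In the cells gated anew after thinning, these shares were 72.6% and 39.2%. GstE6 was the 1 member of the 10 called under every alternative. In infested circulation, tested in place of the lymph gland, 8 members were higher and 0 concentrated, and GstE6 was higher by 0.99 (FDR = 0.00051). Over all genes, 295 were called in either direction there. The difference between cells with and without both markers did not pass the test of a difference between infested and normal glands for any of the 25 members in edgeR (0.647% of all genes did), with 6 of 25 at an unadjusted p below 0.05 against 9.35% of all genes.

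**Figure D4:**
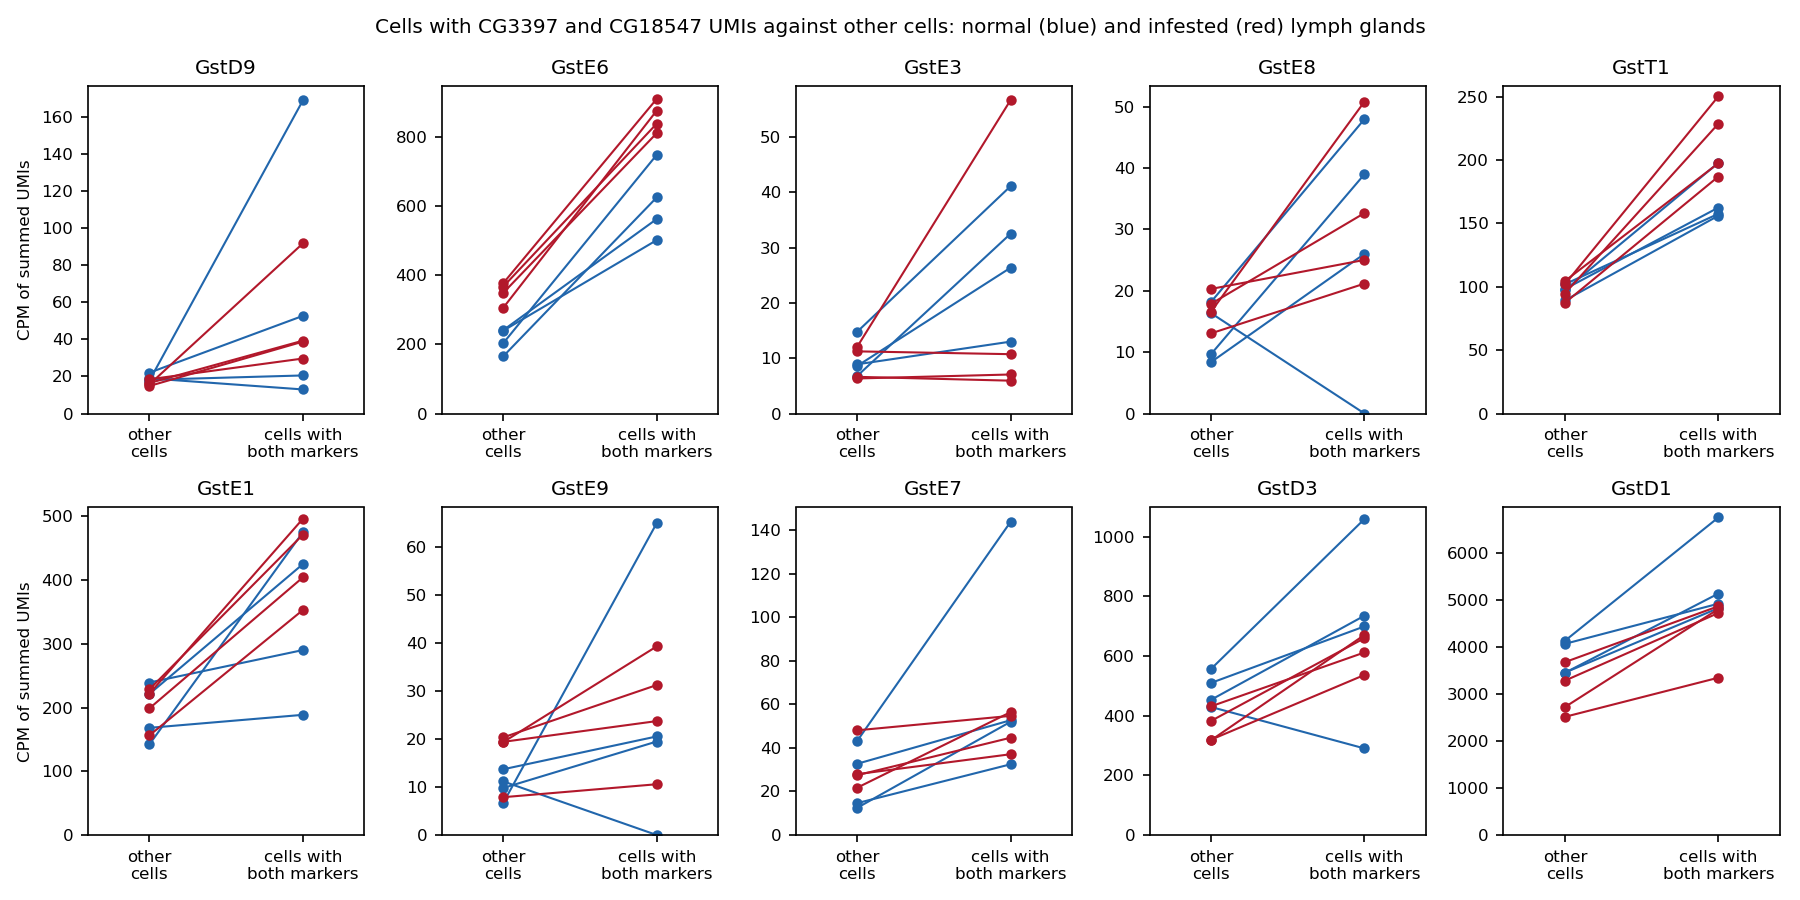
Levels (CPM of summed UMIs) of the 10 members called higher, in other cells and in cells with UMIs of both CG3397 and CG18547. Each line is 1 library, normal (blue) or infested (red) at 96 h AEL. All 8 lines of GstE6 rise, from 165 to 376 CPM to 501 to 909 CPM, whereas GstD9 rises in 7 and GstE3 in 6 of the 8.

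Among markers of other hemocytes in the cells with both markers, Tep4 had a median of 969 CPM over the 8 libraries against 1029 CPM in other cells and Hml 1090 against 1359 CPM. The crystal cell markers PPO1 and PPO2 had medians of 0 and 0.743 CPM against 228 and 289 CPM. These medians include infested glands, in which crystal cell markers summed to only 9.37 to 81.1 CPM over all cells. PPO1 was higher in the cells with both markers in 1 of the 8 libraries and PPO2 in 0. PPO1 reached 1470 CPM in these cells, against at most 911 CPM in other cells. The lamellocyte marker atilla had 27.0 against 136 CPM, and with atilla cells left out 10 members were higher and 4 concentrated. Over all genes, 722 were then called in either direction, against 737 with them. All 6 fat body markers were at 0, and each was at no more than 0.905 CPM in the other cells of any library. Other detoxification genes moved in both directions. CG10638, a further aldo-keto reductase, was higher by 2.43 ± 0.09 and Ugt86Da, a UDP-glycosyltransferase, by 1.97 ± 0.27, whereas the juvenile hormone epoxide hydrolase Jheh1 was lower by 2.80 ± 0.52 on the log2 scale. Of 5 tested genes of glutathione synthesis and thiol reduction, 3 were higher by less than 1, Gclc (0.51 ± 0.10), the catalytic subunit of the first step of glutathione synthesis, Trxr-1 (0.38 ± 0.11) and Trx-2 (0.22 ± 0.07). The microsomal transferase Mgstl, outside the member rule, was lower (-0.75 ± 0.18), and none of the regulators cnc, Keap1 and maf-S passed the test.

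Single-marker gates gave the members' levels along the classical hemocyte types of the lymph gland. Each gate is a range of cells and no cell type. In 13 normal libraries, 2677 cells with at least 2 Hml UMIs and no Tep4 were set against 3702 cells with at least 2 Tep4 UMIs and no Hml, the markers of plasmatocytes and prohemocytes. Of 18 members tested, GstD7, GstE2, GstE3 and GstE1 were higher in Hml cells and GstE9, GstO3, GstE6, GstD3 and GstO2 lower, where 11.7% and 14.4% of 4701 genes were (26.1% in all). GstE9 stood out on the prohemocyte side, with 9.94, 36.9 and 55.3 CPM (lowest, median and highest library) in Tep4 cells and 0, 3.46 and 22.3 CPM in Hml cells, lower in Hml cells of all 13 libraries (-3.23 ± 0.22, FDR = 2.1e-09). GstD7 was on the other side, with 3.57, 81.3 and 342 CPM in Hml cells and 0.316, 24.7 and 62.3 CPM in Tep4 cells, higher in all 13 (2.11 ± 0.21, FDR = 2.6e-07). GstE2 was higher in all 13 as well (1.33 ± 0.18, FDR = 1.3e-05). GstO3 had a median of 704 CPM in Tep4 cells and 399 CPM in Hml cells (-1.15 ± 0.15, FDR = 1.0e-05).

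Crystal cells, which carry the prophenoloxidases of melanisation, were gated by at least 2 UMIs each of PPO1 and PPO2, which gave 374 cells against 20049 others in 9 normal libraries. Of 23 members, 3 were higher and 6 lower, against 11.9% and 14.8% of 6145 genes (26.7% in all). GstE3 was far higher there, with 44.1, 80.8 and 330 CPM (lowest, median and highest library) against 5.04, 11.9 and 31.7 CPM in other cells, and higher in all 9 libraries (3.37 ± 0.36, FDR = 1.4e-06). GstE1 (0.96 ± 0.11) and GstE12 (0.60 ± 0.09) were also higher. GstE9 (-2.41 ± 0.47), GstD3 (-2.07 ± 0.23), GstO3, GstD1, GstE2 and GstO2 were lower, GstE9 on 7 UMIs. In infested glands, 1054 cells with at least 2 UMIs of the lamellocyte marker atilla were set against 9125 others in 4 libraries, and 7 of 25 members were higher and 5 lower, against 19.6% and 18.8% of 6533 genes (38.3% in all). GstE3 (1.50 ± 0.22), GstE11 (1.19 ± 0.31) and GstE2 (1.04 ± 0.07) were higher by more than 2-fold. GstE2 was at 295 to 523 CPM in atilla cells and at 164 to 224 CPM in the others. GstE11, lower in infested glands as a whole, was higher in the atilla cells of 3 of the 4 libraries, with 2.63 to 10.8 CPM against 2.15 to 3.03 CPM, and lost its call without library 1. Without that library 3 members were lower. GstD3, GstE9, GstD7, GstO3 and GstE12 were lower, each by less than 1 on the log2 scale.

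Some low members lay in a few cells that carried marker genes of other tissues. These cells were chosen after their values were seen and are described without a test. GstE14, known as noppera-bo, acts in the ring gland in the synthesis of the steroid hormone ecdysone. It was at 0 in all 6 normal circulation libraries. A count of 0 allows up to 0.431 CPM at 96 h AEL and 0.260 CPM at 120 h AEL (3 counts over the UMIs of the group, counting error only). For normal circulation of 96 h AEL the gene is not listed and was taken as 0. Of its UMIs in lymph gland libraries, 91.8% (202 UMIs) lay in 17 cells with at least 2 of them, from 11 libraries. All 17 had UMIs of phm, a hydroxylase of ecdysone synthesis, against 0.143% of the 32917 other cells. The genes sad and nvd of the same pathway were found in 16 of the 17 each. Tep4 was found in 23.5% of them against 82.6% of other cells, which were deeper (median 6066 against 4148 UMIs). The ring gland lies beside the lymph gland and was detached in dissection according to the methods of the study.

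GstZ2 showed a like pattern in circulation. Cells with at least 2 GstZ2 UMIs, 40 in number, held 82.3% of its UMIs there. The neuronal gene elav was found in 90.0% of them against 6.21% of the 15396 other cells, and Hml in 10.0% against 64.6%. Across libraries GstZ2 was at 9.63, 9.76 and 20.4 CPM in normal circulation of 96 h AEL and at 0.471, 1.75 and 10.6 CPM at 120 h AEL, and elav at 69.7, 37.4 and 97.7 CPM and at 24.5, 30.6 and 67.6 CPM. In infested circulation GstZ2 did not exceed 1.51 CPM and elav 12.9 CPM. Of the 40 cells, 16 and 10 came from normal circulation of 96 and 120 h AEL and 7 and 7 from infested circulation. The share of GstZ2 UMIs in cells with elav was not counted for normal circulation alone. Other neuronal markers were rarer in the 40 cells, with nSyb in 15.0% and brp in 7.5% (0.383% and 0.728% of others). Antp was in 17.5% against 0.974% and the heat shock gene Hsp27 in 82.5% against 34.9%. GstS1, the sigma class member, had 19.4% of its UMIs in 8 cells with 10 or more each, and its levels of 44.1 CPM in normal circulation library 2 of 120 h AEL and 3.92 CPM in library 3 are to be read with this. GstE3, in which 51 cells with 10 or more UMIs held 15.7%, had PPO1 in 33.3% of these cells against 5.53% of others and atilla in 41.2% against 17.9%, but these cells were deeper (median 14004 against 5805 UMIs).

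**Figure D5:**
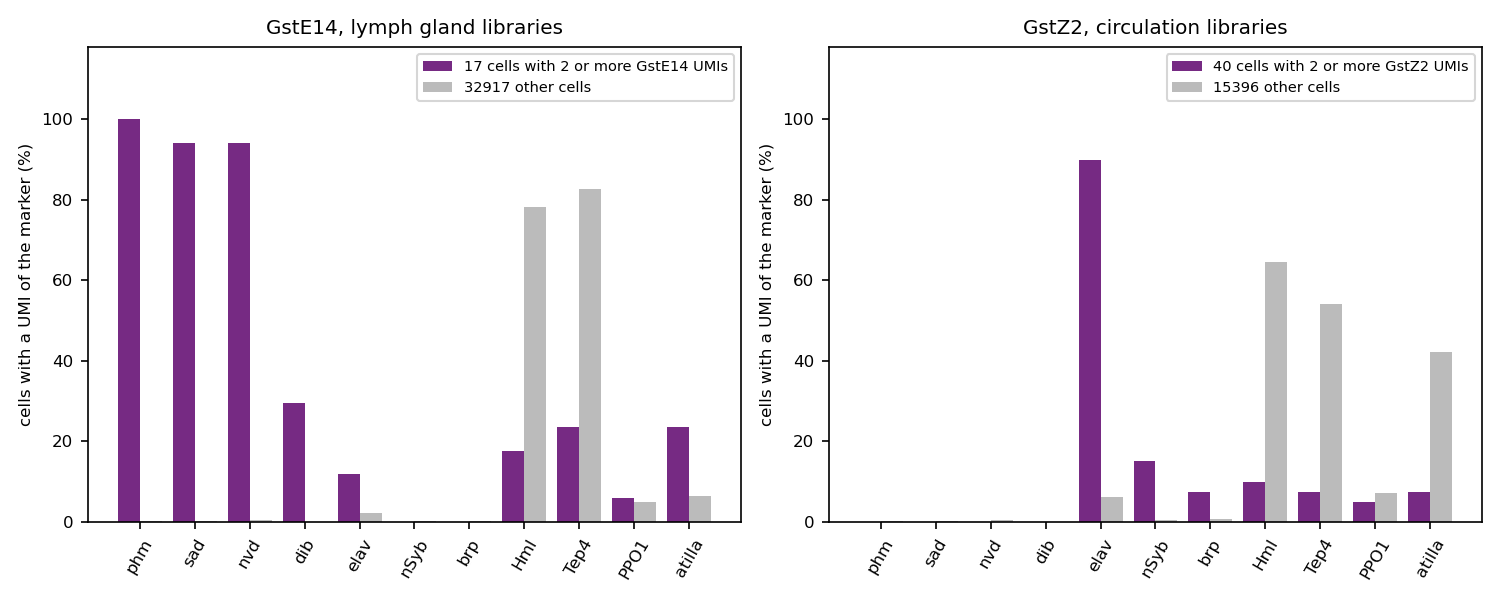
Share of cells (%) with at least 1 UMI of each marker among cells with 2 or more GstE14 UMIs in lymph gland libraries (left) and 2 or more GstZ2 UMIs in circulation (right), beside all other cells (grey). The 17 GstE14 cells carry phm, sad and nvd at 94.1% to 100%, and the 40 GstZ2 cells carry elav at 90.0%.

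For other genes of glutathione metabolism, circulation results include both libraries 3 and were not repeated without them. At 120 h AEL, 4 of 5 tested genes of glutathione synthesis and thiol reduction were lower in circulation than in the gland. Among them were Gclc (-1.92 ± 0.42) and Gclm (-1.10 ± 0.28), and 0 were higher. Of 4 transferase-like genes outside the rule, 3 were lower and 1 higher. In that comparison 24% of all genes were lower and 27.9% higher (52% in all). At 96 h AEL these counts were 1 of 5 lower, and 1 lower and 1 higher of 4. Of all genes, 22.8% were lower and 27% higher at that age (49.8% in all). None of the 3 regulators passed the test over lymph gland development, whereas Keap1 was lower in infested glands (-1.12 ± 0.22, FDR = 0.0063) and in circulation than in the gland at both ages. Of 5 tested genes of glutathione synthesis and thiol reduction, Gclm, the modifier subunit of the first step, rose from 96 to 120 h AEL (1.61 ± 0.23, FDR = 4.9e-05) while Trx-2 fell (-0.85 ± 0.10, FDR = 1.1e-05). Outside the rule, the omega class gene se rose by 2.25 ± 0.45 (FDR = 0.00099) in the same step, as GstO3 did. In infested circulation the aldo-keto reductases CG3397 (2.34 ± 0.51 at 96 h AEL and 2.81 ± 0.49 at 120 h AEL) and CG18547 (1.19 ± 0.28 and 0.92 ± 0.27) and Ugt86Da (2.17 ± 0.33 and 2.70 ± 0.28) were higher, and Jheh1 and Jheh2 lower at both times.

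Over the 30 libraries, the genes whose levels were most like those of the concentrated members were compared among 5064 genes with a mean of at least 10 CPM, as a description across libraries that share groups. GstE6 was most like CG42394 (r = 0.940 on log2 CPM), Sr-CIII (0.931) and GstE8 (0.928), and GstE8 most like GstE6, GstE7 (0.923) and CG42394. The remaining ones were most like genes outside the family. GstT1 was most like Cisd2 (r = 0.901), GstD9 most like Sep2 (0.866) and GstE3 most like CG3568 (0.841).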

How the data were processed

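The deposited UMI count tables, 1 per library, were used as they were. Per the methods and labels, the authors aligned Drop-seq reads with STAR 2.5.3a to BDGP 6 and counted UMIs per gene with Picard and Drop-seq tools. Tables of infested lymph glands lack the last 541 gene rows in alphabetical order, which were left out of fits that use them. A gene not listed in a circulation table was taken as 0. Cells of the other groups had 400 to 5000 genes, UMIs up to 2 SD above their library's mean and a mitochondrial share of up to 10% in lymph glands and 20% in circulation. Infested lymph gland tables were kept whole. Doublets were scored with Scrublet (scanpy 1.11.5), which marked 0.407% of cells, so none were removed and the highest 5% were left out as an alternative. CPM are UMIs per 1000000 over the kept cells, without the TMM size factors that enter the fold changes.

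UMIs were summed per library, or per library and gate with the library as a block, and tested with edgeR 4.0.16 in R 4.3.3 (TMM, filterByExpr, quasi-likelihood test, Benjamini-Hochberg FDR over all genes). The fits were tested on simulated data. Of 2-fold changes, 74% to 85% were recovered between lymph gland groups and 54% to 59% between circulation and lymph gland. Between infested and normal circulation 40% were recovered at each age. False calls made up 3.1% to 8.33% of all calls, with the highest share from 96 to 120 h AEL in the lymph gland. Members and lists were chosen with earlier results of these data known. Values are given for most of the 5 members called with the largest change in each comparison, and for those concentrated in cells with both markers. Some members in the single-marker gates are only named or given without levels. The alternatives tried were RLE size factors, DESeq2 1.42.0, genes unfiltered, all barcodes, 1 fit of all libraries, the replicate number as a block, each library left out, other gates and thinning to 2000 UMIs. Leaving out both normal circulation libraries 3 or the atilla cells was chosen after seeing the data. Libraries are the replicates, and where nothing names separate animals the p-values measure the spread between libraries. Gss1 and Hsp22 were not found by symbol.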

Additional observations from a re-analysis of the deposited data

Results flagged for a closer look

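Members were searched for libraries far from the others of their group, in groups of 4 or 5 libraries. Of 120 such groups 7 held one, where chance gives about 1 in 20, or 6. GstE11 was at 1.61 CPM in normal lymph gland library 3 of 72 h AEL against 2.67 to 3.10 CPM in the other 4. GstS1 was at 13.3 CPM in library 5 of the same age against 6.05 to 7.84 CPM. GstE3 was at 15.0 CPM in library 2 of 96 h AEL against 7.11 to 9.38 CPM, and GstZ2 at 4.13 CPM in library 1 of that age against 0.103 to 0.553 CPM. GstE5 was at 0.166 CPM in library 4 of 120 h AEL against 0.432 to 0.451 CPM. In infested lymph glands, GstE9 was at 7.98 CPM in library 4 against 19.6 to 20.6 CPM, and GstT3 at 12.8 CPM in library 2 against 14.39 to 14.47 CPM.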

How the results depend on the processing

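Of 4814 member fold changes under alternatives, 4507 kept their side of the threshold, 224 lost the call and 77 gained it. A further 6 turned direction with a call before or after the turn. Turns of direction between uncalled values were counted as kept. DESeq2 gave 4 members higher in infested lymph glands in place of 2, as did all barcodes, and 1 fit of all 30 libraries gave 0 higher and 2 lower there, and 2 lower from 72 to 96 h AEL. With all barcodes, 1 member was higher in circulation at 120 h AEL. Cells with both markers gave 5 members higher and 3 concentrated without the library block, 3 and 2 after thinning, 6 higher, 1 lower and 2 concentrated with CG3397 alone, 1 concentrated with CG18547 alone, 1 lower with at least 5 cells a library and 0 concentrated in infested circulation. GstO3 was then at a log2 fold change of -0.50 with CG3397 alone and of -0.59 with at least 5 cells a library. Over all genes, 737 were called for this gate in the main setting, 398 without the block and 177 after thinning. With CG3397 alone 616 were called, with CG18547 alone 532, with at least 5 cells a library 715 and in infested circulation 295. Lower counts were 3 for Hml cells and 3 for PPO cells without the block, 3 for PPO cells after thinning, and for atilla cells 9 with no filter on low counts, 1 without the block and 3 after thinning. GstD7 in circulation against the lymph gland of 120 h AEL turned to -0.079 without normal circulation library 3 and to -0.067 without both libraries 3, and in infested circulation of 120 h AEL to 1.29, and GstS1 in circulation of 120 h AEL went to -1.36 without library 2. Over all libraries left out in turn at that age, GstD7 ranged from -0.079 to 2.07 and GstS1 from -1.36 to 0.72. The causes were not tested.

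With each library left out in turn, 2 to 5 members were higher in circulation at 96 h AEL, with 1 to 2 at 120 h AEL, 9 to 15 higher and 1 to 4 lower in infested circulation of 96 h AEL, 3 to 6 concentrated in cells with both markers and 3 to 6 lower in atilla cells. For libraries of the same number in 2 compared groups, deviations from the group means correlated by -0.52 to 0.36. With only 3 to 5 libraries in a group, such correlations cannot decide whether numbers pair the libraries. With the number as a replicate block, 1 member was higher in circulation at 96 h AEL and 1 at 120 h AEL. Cells with atilla alone held too few with both markers to be compared. Depth limited the rarest members, of which 5 were never tested, and normal circulation had 1034 and 1706 cells in all.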
